A study of Rattus norvegicus with 6 samples.

Results

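Sodium palmitate, the salt of a common saturated fatty acid, was given to stem cells that had been plated from muscle of male rats, and their RNA was compared with that of a high glucose and a low glucose control culture. The palmitate library is titled fatty acid in the labels, and it is 1 of 6 libraries, each read on 1 Affymetrix Rat Gene 2.0 ST array. The comparison uses 3 of the 6: the fatty acid, high glucose control and low glucose control libraries. The others, used only for context, are a cholesterol library (100 mg/dl, carried by cyclodextrin) and libraries titled LZ serum and OZ serum. All 6 hold the same kind of cell. The labels give no dose, time or carrier for palmitate, no glucose concentration, and no word on which control belongs to palmitate or whether cells of different animals were pooled. Each difference was therefore kept against each control separately, and a gene was counted when the palmitate library was at least 2-fold above or at least 2-fold below both. With 1 array per group there is no replicate error, so no difference could be tested, and each value describes these cultures and not palmitate in general.

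Palmitate enters cells, is activated to palmitoyl-CoA, and is then burned in mitochondria, stored in lipid droplets or built into ceramides and phospholipids. Saturated acyl chains stiffen the membrane of the endoplasmic reticulum, and its stress sensors (IRE1, PERK and ATF6) respond through the unfolded protein response, which raises chaperones and the machinery that removes misfolded proteins. Palmitate is also known in muscle cells and fibroblasts for activating JNK and NF-kB, the pathways behind AP-1 factors and chemokines, and for weakening insulin signalling. Stem cells plated from muscle can be myogenic or mesenchymal, and the latter secrete collagen, basement membrane and growth factors that muscle fibres and their progenitors depend on.

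Of 18166 genes that a probe set names alone, 11540 passed the signal filter, a 6-array mean no lower than the median probe-set value, which was 6.74 as log2 intensity. Of these 11540, 306 genes (2.65%) differed at 2-fold from both controls in 1 direction, 74 (0.641%) of them higher with palmitate and 232 (2.01%) lower. These shares are the background for the counts at 2-fold in the lists that follow. At any size, 4657 genes (40.4%) lay above both controls, 4581 (39.7%) below both, and 2302 between them. The 40.4% and 39.7% are the background for list counts above or below both controls. The median difference over all genes was 0.0077 on the log2 scale from the high glucose control and -0.0030 from the low glucose control. All differences below are log2 differences between intensities, and a single value is the smaller of the 2 differences. At 3-fold the counts were 22 higher and 59 lower, and at 8-fold they were 2 higher and 8 lower. Of the 74 higher genes, 7 had a control value under the filter level, and 5 passed the filter only through palmitate. In 4 genes palmitate was 2-fold from 1 control and on the opposite side of the other. The 2 differences share the palmitate array, so their likeness is in part built in.

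**Figure D1:**
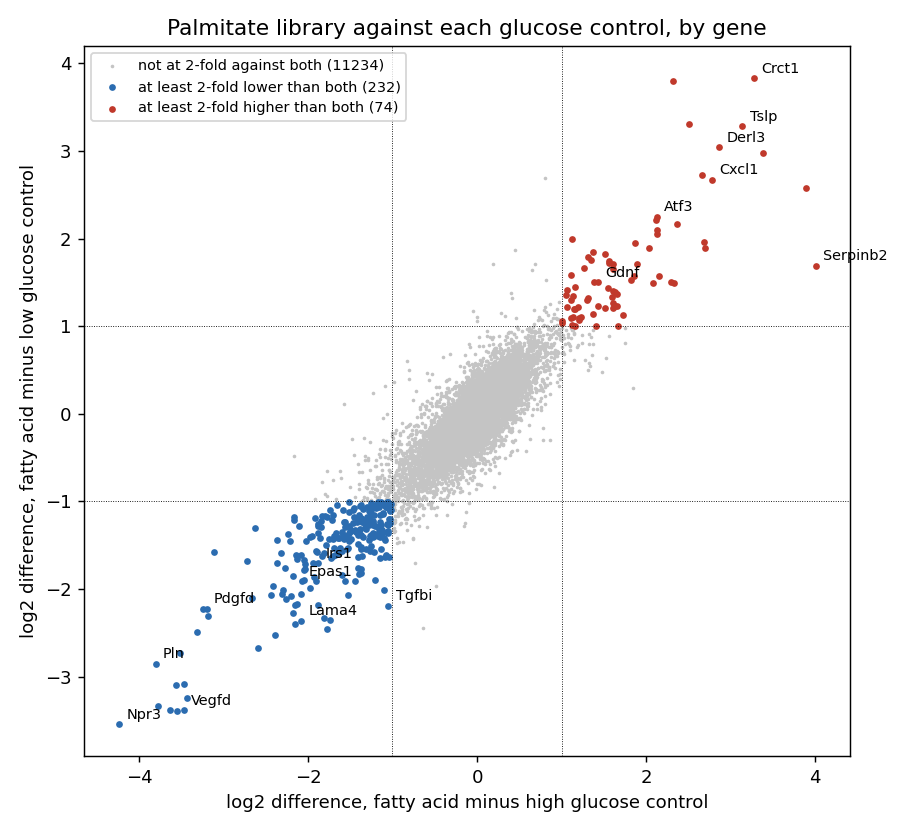
Log2 difference of the palmitate library from the high glucose control (x axis) and from the low glucose control (y axis) for 11540 genes, 1 point per gene, with dotted lines at 2-fold. The 74 red genes lie above 2-fold and the 232 blue genes below 2-fold against both controls, from Crct1 (3.28 and 3.83) to Npr3 (-4.23 and -3.54); Tgfbi and Serpinb2 lie off the diagonal because the controls differed.

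The palmitate array also stood apart in its spiked controls. All 18 probe sets for the hybridisation controls, which are added to every hybridisation in fixed amounts, were highest on it. The median log2 difference was 0.50 from the high glucose control and 0.72 from the low glucose control. The array's 23 background probe sets had medians of 0.13 and 0.07 above the controls. Median intensity over all probe sets was 108.6, within the range of 104.6 to 109.2 over the 6 arrays, so the values below are relative to a common distribution and a change in total RNA per cell could not be seen. The part of the spiked controls in any gene's value was not tested.

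Over 3 lists of the unfolded protein response, with 27, 18 and 19 measured genes, 5 genes were at least 2-fold higher with palmitate than in both controls. None was 2-fold lower. Of all measured genes, 0.641% were 2-fold higher and 2.01% were 2-fold lower. Derl3 (probe set 17757820), a channel component through which misfolded proteins leave the endoplasmic reticulum, had a log2 intensity of 9.88 with palmitate, 7.02 with high glucose, 6.84 with low glucose, and between 6.58 and 6.83 in the cholesterol and serum libraries. All 5 other libraries thus lay close to the median of all values, and palmitate was 7.28-fold over the nearer control. Creld2, a stress-induced protein of the endoplasmic reticulum, stood at 10.64 against 9.03 and 9.23. Dnajb9, a cochaperone of the chaperone BiP, stood at 11.89 against 10.62 and 10.22. Ern1, which encodes IRE1 itself, stood at 10.53 against 9.15 and 9.38, and Ppp1r15a (GADD34), the phosphatase subunit that ends the translational arrest, at 10.60 against 9.39 and 9.50. The 3 other libraries lay between 9.07 and 9.49 for both genes, below the palmitate value.

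Among 27 measured chaperones and folding enzymes of the endoplasmic reticulum, 19 were above both controls, 5 below and 2 at 2-fold (Creld2 and Dnajb9), with medians of 0.25 and 0.13. Members under 2-fold included Dnajc3 (0.70), Pdia4 (0.65), Hyou1 (0.53) and Hspa5 (0.54). Hspa5 encodes BiP, the main chaperone of the lumen, and was already abundant at 12.79 and 12.84 in the controls. Of 18 measured genes of degradation from the endoplasmic reticulum, 12 were above both controls and 2 below, with medians of 0.17 and 0.19. Herpud1, which assembles the degradation complex, was at 0.60 and Edem1, which picks mannose-trimmed glycoproteins for it, at 0.36. Among 19 sensors and factors, 10 were above and 6 below, with medians of 0.08 and 0.07. Ddit3 (CHOP), the factor tied to stress-induced death, was at 0.70, while Xbp1 was at 0.07 and Atf6 at -0.13. The array does not separate spliced from unspliced Xbp1. Creb3l1, a membrane-bound factor that drives collagen secretion, was at -0.91. In the cholesterol library the chaperone list's medians were -0.11 and -0.20 against the same controls.

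The promoters of several of these genes carry the element through which ATF6 and XBP1 act. Shown are 4, from genes with large differences and from chaperones with smaller ones. Whether the element has a part in these values was not tested. The endoplasmic reticulum stress element, searched as CCAAT, 9 bases of any kind, then CCACG, on both strands of the 250 bases before the annotated start, was present in 21 of 27457 RefSeq promoters (0.0765%). Each line gives the GRCr8 stretch in the gene's own direction with the element in capitals; in Derl3 and Creld2 it reads on the opposite strand.
Derl3 (chr20:12766561-12766659, minus strand): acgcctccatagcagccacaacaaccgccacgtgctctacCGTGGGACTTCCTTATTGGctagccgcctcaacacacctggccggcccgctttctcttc
Creld2 (chr7:121789199-121789297, plus strand): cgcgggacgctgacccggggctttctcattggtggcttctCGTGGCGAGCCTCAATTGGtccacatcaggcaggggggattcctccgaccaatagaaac
Hspa5 (chr3:38452933-38453015, plus strand): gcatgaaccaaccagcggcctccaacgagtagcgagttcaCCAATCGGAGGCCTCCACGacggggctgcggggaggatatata
Dnajc3 (chr15:102432494-102432592, plus strand): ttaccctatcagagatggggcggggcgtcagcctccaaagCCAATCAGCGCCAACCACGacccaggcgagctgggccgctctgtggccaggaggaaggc

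Promoters were given for 9457 of the 11540 measured genes, and 15 of those held the element (0.159%). Of these 15 genes, 11 were above both controls, 2 below and 2 between, and 3 reached 2-fold upward. Beside Derl3 and Creld2, the third was Zfand2a, an arsenite-inducible partner of the proteasome, at 11.93 against 10.32 and 10.23. The 15 are named for the element, whatever their value. The others above both controls were Dnajc3, Ero1b (0.57), Hspa5, Hsp90b1 (0.48), Zfp57 (0.14), Calr (0.11), Canx (0.09) and Xbp1. Pan2 (-0.63) and Ppm1l (-0.26) were below both, and Ankmy2 and Hnrnpa3 lay between. The median of the 15 was 0.32 and 0.25, beside 0.0077 and -0.0058 over all 9457 genes with a promoter. Over those 9457, 40% were above both controls and 39.8% below, and at 2-fold 54 were higher and 172 lower. A match is a description of these letters and not a shown binding site.

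Genes of amino acid synthesis and transport that ATF4 drives, a further branch of the stress response, went the other way in most cases. Of 29 measured genes, 19 were below both controls and 7 above, with medians of -0.28 and -0.62. Slc7a3, a transporter of arginine and lysine, stood at 6.09 with palmitate against 8.40 and 8.14. Aldh1l2, a mitochondrial folate enzyme, was at -1.74, and Pycr1, the last enzyme of proline synthesis, at -1.44. Aldh18a1, the first enzyme of proline synthesis, was at -0.76, and Phgdh, the first of serine synthesis, at -0.69. The members above 2-fold in that list were Atf3, Ppp1r15a and the stress cytokine Gdf15 (1.01), and Ddit3 was at 0.70. Gdf15 was at 0.95 when each array was centred on its median and at 0.90 with an offset of 32 before log2. The controls differed too, with a list median of -0.20 for high minus low glucose. In the cholesterol library the list stood at -0.44 and -0.68.

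Immediate early genes, which growth factors and stress kinases switch on within minutes, were higher with palmitate. Of 24 measured members, 20 were above both controls, 1 was below and 6 reached 2-fold, with medians of 0.40 and 0.42. Of all measured genes, 40.4% were above both controls and 0.641% were 2-fold higher. Atf3 (probe set 17687609), a stress-induced partner of JUN, stood at 9.34 with palmitate, 7.22 and 7.09 in the controls, 8.56 with cholesterol and 7.29 and 7.28 in the serum libraries. Fosl1, the FOS relative that accumulates during long ERK signalling, stood at 11.11 against 8.78 and 9.61. Jun, the core AP-1 subunit, stood at 11.03 against 9.60 and 9.80, but its value was 0.79 when its probe sets were averaged, so they disagree on the size. Egr1 (1.01) and Egr2 (1.11), zinc finger factors that serum response factor drives, and Klf4 (1.14) also reached 2-fold, Egr1 only at 0.96 after centring on the median. Myc was at 0.59 and Junb at 0.39. Fos itself was near background, at 6.96 against 6.77 and 6.58. In the cholesterol library the list's medians were 0.22 and 0.31.

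Of the dual-specificity phosphatases that switch off ERK and stress kinases, 3 of the 11 listed and measured were at least 2-fold higher. Over all measured genes, 0.641% were. Dusp5, which holds ERK inactive in the nucleus, stood at 10.65 with palmitate against 8.51 and 8.59, a 4.15-fold difference from the nearer control. Dusp6, which acts on ERK in the cytoplasm, stood at 10.59 against 8.30 and 9.09. Dusp10, which acts on p38 and JNK, stood at 10.30 against 8.45 and 8.72, and cholesterol gave nearly the same level, 10.31. Dusp16 was at 0.67 and Dusp9 at 0.40, while Dusp1 (-0.07), Dusp2 (-0.19), Dusp3 (-0.27) and Dusp8 (-0.04) were below both controls and Dusp4 and Dusp7 between them. In the 24 measured genes of ERK feedback, 10 (41.7%) were above both controls, near the 40.4% of all genes, and 8 were below. The inhibitor Spry2 was at 0.80, and Etv1, an ERK-driven factor, at -1.24, or -0.88 with the serum libraries also required. Outside the lists, Rasgrp3, an activator of RAS, stood at 12.83 against 10.13 and 10.94.

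The serum response element, or CArG box, on which Egr1 and the muscle actins are built, was present in 1.26% of the 9457 promoters. It occurred in Egr1, Egr2 and Dusp5 among the genes at 2-fold higher, and in Acta1, Etv1, Rnf128 and Ston1 among those lower; the last 2 were named after their values were seen. It is shown for the genes at either end.
Egr1 (chr18:26736933-26737022, plus strand): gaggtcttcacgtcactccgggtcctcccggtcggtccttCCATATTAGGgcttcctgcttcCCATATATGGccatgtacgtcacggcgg
Acta1 (chr19:68784239-68784328, minus strand): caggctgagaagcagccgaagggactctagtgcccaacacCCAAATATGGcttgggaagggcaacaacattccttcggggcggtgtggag
The capitals mark the boxes, 2 in Egr1 and 1 in Acta1. Acta1 (probe set 17734361), the skeletal muscle actin, stood at 8.43 with palmitate against 10.86 and 10.50. So genes with the same box lay on both sides, and the 119 measured genes with one had medians of 0.01 and -0.04.

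**Figure D2:**
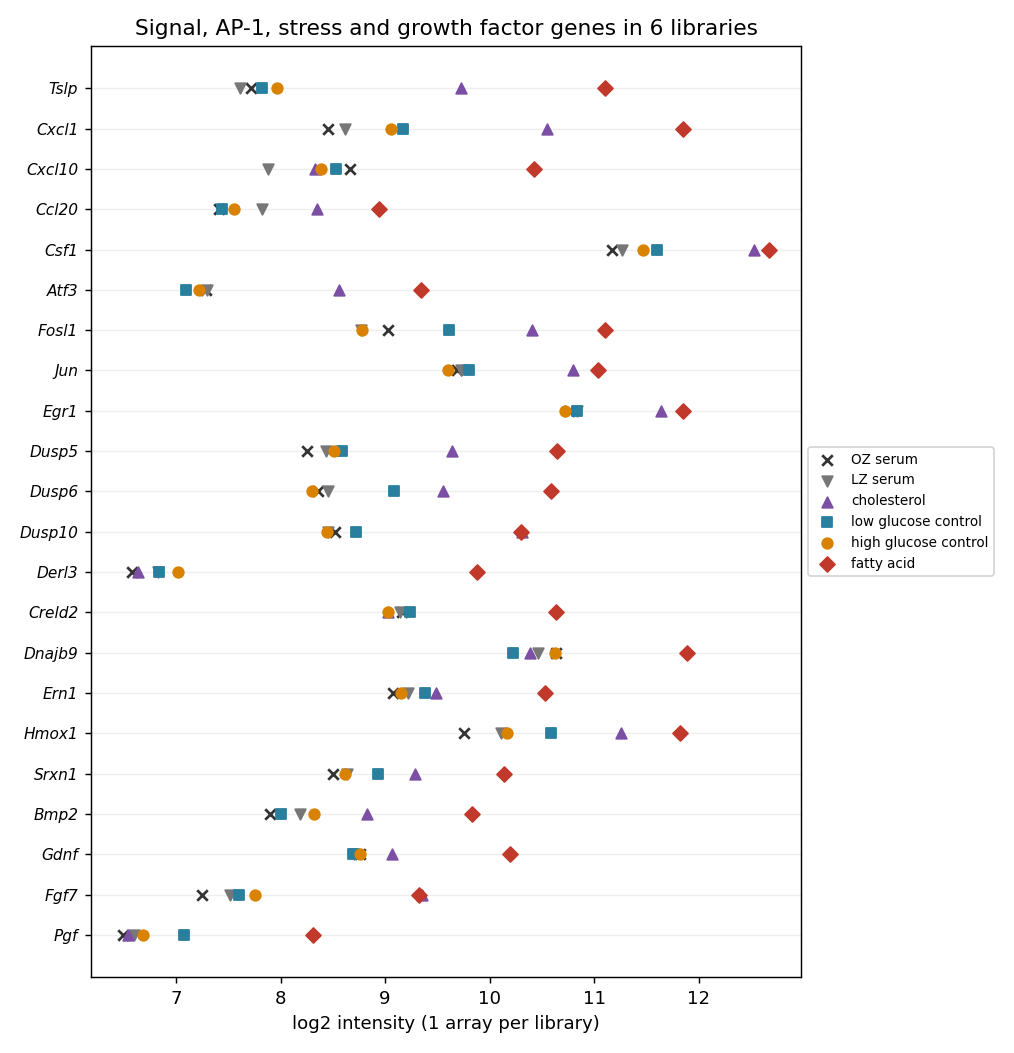
Log2 intensity (x axis) of 22 genes in the 6 libraries, 1 symbol per library and 1 array each. The palmitate library (red diamonds) lies to the right of both glucose controls for every gene shown; cholesterol (purple triangles) lies near it for genes such as Dusp10, Csf1 and Fgf7, and lies with the controls for Derl3, Cxcl10 and Pgf.

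Secreted signals to immune cells were among the largest differences. Tslp (probe set 17722195), a cytokine that barrier cells release, stood at 11.11 with palmitate against 7.97 and 7.82, with 9.73 in the cholesterol library and 7.62 and 7.72 in the serum libraries. Cxcl1 (probe set 17693465), which draws neutrophils, stood at 11.85 against 9.06 and 9.17. Cxcl10, which draws T cells and is known as an interferon target, stood at 10.42 against 8.39 and 8.53, and at 8.33 with cholesterol. Ccl20, a ligand of CCR6, stood at 8.95 against 7.56 and 7.44. Csf1, the macrophage growth factor, stood at 12.67 against 11.46 and 11.60, close to 12.53 with cholesterol. Of 14 measured chemokines, 11 were above both controls, none was below and 3 reached 2-fold, with medians of 0.43 and 0.37. The 3 made 21.4% of the list, beside 0.641% of all measured genes. Ccl7 was at 0.89 and Ccl2, which draws monocytes, at 0.28.

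Among 32 measured cytokines and receptors, 16 were above both controls and 10 below. Lif was at 0.72 and Clcf1 at 0.66, both ligands of the gp130 family, whereas their receptor chain Lifr was at -0.63 and Il6 at -0.65. Il6 also differed between the controls, at 6.95 with palmitate against 8.73 and 7.61. Of 40 measured genes of Toll-like receptor and NF-kB signalling, 27 were above both controls and 9 below, with medians of 0.15 and 0.23. Nfkbiz, a nuclear cofactor induced by NF-kB, stood at 9.45 against 8.14 and 7.66 and was the only one at 2-fold. The kinase Ripk2 was at 0.81, and Nfkbia, the inhibitor that NF-kB itself induces, at 0.62. The receptor Tlr6 (-0.78) and the coreceptor Cd14 (-0.60) were below both controls. Tnip3, which restrains NF-kB and was outside the lists, stood at 10.30 against 7.62 and 8.34.

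An NF-kB motif was found in the promoters of 7 of the 54 genes at 2-fold higher that have one (13%), against 3.49% of 172 lower genes and 4.2% of all 9457. The 7 were Ccl20, Creld2, Cxcl1, Cxcl10, Nfkbiz, Tfpi2 and Tslp. The 397 measured genes with the motif had medians of 0.01 and -0.04, so as a group they lay at the level of all genes. The stretch of Cxcl1 is shown because it holds 2 overlapping matches close to the start.
Cxcl1 (chr14:17479356-17479445, minus strand): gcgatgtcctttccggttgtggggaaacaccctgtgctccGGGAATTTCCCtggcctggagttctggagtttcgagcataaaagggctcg
The capitals mark both matches.

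Of 16 annotated markers of macrophages and other leukocytes 5 passed the signal filter. The intensity summed over all 16 was 1458 with palmitate, 1816 and 1575 in the controls and 2440 with cholesterol. Ptprc (CD45), carried by all leukocytes, stood at 5.53 with palmitate and at 5.53 and 5.52 in the controls, well below the median of all values. Of the 5 that passed, 3 were above both controls and 1 below, with medians of 0.18 and 0.06, from Cd68 (0.40) to Cd14 (-0.60). Lilrb4, a receptor of myeloid cells outside the list, stood at 9.46 with palmitate against 6.95 and 6.16 and at 10.18 with cholesterol. The part of leukocytes in the chemokine and cytokine values was not tested.

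Of 32 measured genes of the antioxidant factor NRF2, 2 were at least 2-fold higher. Hmox1 (probe set 17728071), which breaks down heme, stood at 11.82 with palmitate, 10.16 and 10.59 in the controls and 11.26 with cholesterol. Srxn1, which repairs overoxidised peroxiredoxins, stood at 10.14 against 8.62 and 8.94. The next members were Txnrd1, the thioredoxin reductase (0.96), Osgin1 (0.92) and the glutathione synthesis subunits Gclc (0.87) and Gclm (0.78). In all, 18 were above both controls and 8 below, with medians of 0.14 and 0.10, beside 0.16 and 0.25 with cholesterol. The only one at 2-fold lower was the epoxide hydrolase Ephx1 (-1.01; -0.98 after quantile normalization). The antioxidant response element, TGAC then 3 bases then GCA, was in 3.7% of the promoters of the higher genes and 2.29% of all. The proteasome, a further set with NRF2 targets, had 22 of 36 subunits above both controls and 6 below, none at 2-fold, led by Psmd5 (0.53), Psmd8 (0.46) and Psmd11 (0.45). Heat shock genes, mostly cytosolic, were mixed: the mitochondrial Hspd1 was at 0.56 and Dnaja1 at 0.46, Hspb6 at -0.85 and Hspb2 at -0.66.

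Genes that handle the added fatty acid showed smaller differences. Cidea, which fuses lipid droplets, reached 2-fold (9.18 against 8.17 and 8.14) but was at 0.97 after centring on the median and 0.93 with the offset. The droplet coat gene Plin2 was at 0.76, the transporter Slc27a4 at 0.71 and the lipase inhibitor Angptl4 at 0.57. Acsl3, which activates fatty acids, was at -0.67, Slc27a1 at -0.63 and the binding protein Fabp3 at -0.61. In all, 21 of 40 measured genes of uptake, activation and storage were above both controls and 14 below, with medians of 0.14 and 0.02. Cpt1a, the gate to mitochondrial oxidation, stood at 9.90 against 8.95 and 8.88, but 21 of 35 measured oxidation genes were below both controls, such as Hadh (-0.93), Hsd17b4 (-0.64) and Acadm (-0.52).

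In sphingolipid metabolism, the branch that takes palmitate into ceramide, 15 of 35 measured genes were above both controls and 18 below. Sphk1, which turns sphingosine into the signal sphingosine 1-phosphate, stood at 9.68 against 8.07 and 8.48, and was the only member at 2-fold. Sgms2, which turns ceramide into sphingomyelin, stood at 11.84 against 10.88 and 10.57. The lysosomal enzymes Glb1 (-0.87) and Hexa (-0.78) and the ganglioside synthase St3gal5 (-0.84) were below both controls. Of 22 sterol genes, 18 were below, with medians of -0.33 and -0.52. In the cholesterol library that list was lower still, with medians of -1.06 and -1.13.

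Crct1, Lce1e, Sprr1a and Kprp, genes of the cornified envelope that keratinocytes normally make, were at least 2-fold higher with palmitate. Of 20 measured members of that list, 12 were above both controls and 6 below, and its medians were 0.07 and 0.19. Lce1e passed the signal filter only through its palmitate value, since the mean of its other 5 libraries was 6.57. Kprp stood at 11.02 with palmitate against 8.70 and 7.22, and at 7.70 with cholesterol. Of 8 annotated keratinocyte markers 2 passed the filter, and the intensity summed over all 8 was 720.3 with palmitate and between 636.8 and 654.1 in the other libraries. Palmitate was thus the highest of the 6 libraries in this sum. It was also highest in the lymphocyte (764.6), adipocyte (860.1) and myogenic progenitor (982.0) sums. The next library in those sums stood at 738.1, 827.8 and 980.7. Palmitate was not highest in the leukocyte, endothelial, neural, mesenchymal or smooth muscle sums. Krt14 stood at 7.03 against 6.68 and 6.54, and Epcam, an epithelial adhesion gene, at 4.45 against 4.41 and 4.53. The part of these markers in the result was not tested. Their neighbours in kind among the largest differences were Dhrs9, a retinol and steroid dehydrogenase (11.57 against 7.68 and 8.99), and Serpinb2, an inhibitor of plasminogen activators (11.68 against 7.68 and 9.99).

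The AP-1 motif TGANTCA was found in the promoters of 10 of 54 higher genes (18.5%), 5.81% of lower genes and 4.48% of all 9457. The named ones are Cxcl10, Dhrs9, Fam110c, Mmp3, Serpinb2, Sprr1a, Srxn1, Tfpi2 and Zfand2a, the remaining one being an olfactory receptor gene. Fam110c passed the signal filter only through its palmitate value, and 9 of the 10 passed without it. The 424 genes with the motif had medians of 0.05 and 0.01. Sprr1a is shown because it holds the motif 2 times within a short stretch.
Sprr1a (chr2:180752726-180752812, minus strand): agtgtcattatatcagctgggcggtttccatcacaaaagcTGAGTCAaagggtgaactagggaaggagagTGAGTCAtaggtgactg
Sprr1a stood at 9.68 with palmitate against 7.02 and 6.95, and no other library exceeded 7.33. The palindromic cyclic AMP element, the last of 6 motifs searched, was in 3.7% of higher, 1.16% of lower and 2.87% of all these promoters.

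In the plasminogen system Plat, the tissue plasminogen activator, stood at 8.69 with palmitate against 10.52 and 10.32. The inhibitors Serpinb2 (1.69) and Tfpi2 (1.35) were higher, and the urokinase receptor Plaur was at 0.70. Of 20 measured genes of the system, 7 were above both controls and 8 below. Mmp3, the stromelysin, was high at 12.80 against 11.19 and 11.15, and Mmp23 low at 9.29 against 11.41 and 11.46. Of 15 measured matrix metalloproteinases and inhibitors, 10 were below both controls and 4 above.

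The growth factors that these cells could offer their neighbours differed in both directions. Gdnf (probe set 17736257), a survival factor for motor neurons, stood at 10.19 with palmitate and between 8.69 and 9.06 in all 5 other libraries. Fgf7, which acts on epithelium, stood at 9.32 against 7.76 and 7.60, and Pgf, a ligand of the receptor FLT1, at 8.31 against 6.68 and 7.08. Pgf passed the signal filter only through its palmitate value, its other 5 libraries having a mean of 6.68. Vegfd (probe set 17877013), which drives lymphatic growth, stood at 7.35 against 10.82 and 10.74, with 10.09 to 10.94 in the other 3 libraries. Pdgfd, a ligand of PDGFRB, stood at 5.99 against 9.19 and 8.22, below the median of all values with palmitate. Fgf1 stood at 9.64 against 11.52 and 11.00, and the VEGF coreceptor Nrp1 at 8.10 against 9.50 and 9.93. Receptors for these ligands were low by less: Fgfr2 (-0.98), Pdgfrb (-0.84) and Pdgfra (-0.54). Of 36 measured genes of the list, 10 were above both controls, 3 of them at 2-fold, and 20 below, 4 at 2-fold.

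Ligands of the bone morphogenetic proteins were split. Bmp2 (probe set 17766552) stood at 9.83 with palmitate against 8.32 and 8.01, whereas Bmp6 stood at 7.58 against 9.78 and 9.66, Bmp3 at 7.66 against 9.84 and 9.52, and Bmp4 at 9.47 against 10.93 and 10.54. Bmp4 was under 2-fold (-0.84) when the serum libraries were also required. The extracellular modulator Bmper was at -1.64, the decoy receptor Bambi at -1.54, and the inhibitory Smad6 at -0.88 and the target Id3 at -0.76. Tgfb2 stood at 11.08 against 12.26 and 12.37, and Inhba, the activin A subunit, was at 0.87. Nrep (probe set 17725368), which raises TGF-beta output in wound fibroblasts, stood at 9.09 against 12.64 and 12.49, a 10.5-fold difference from the nearer control. Tgif1, a corepressor of SMADs, was at 1.07. Of 47 measured members, 18 were above both controls and 26 below, with medians of -0.25 and -0.17.

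Wnt and Notch genes at 2-fold were all on the low side. Rspo1, which amplifies Wnt signals, stood at 9.52 with palmitate against 11.40 and 11.71, and Wnt4 at 7.96 against 9.37 and 9.72, while cholesterol had Wnt4 at 10.27. The receptors Fzd2 (-1.37) and Fzd8 (-1.33) and the intracellular regulator Dact1 (-1.43) were also low, and Apcdd1, an inhibitor, was at -1.05 but at -0.80 with the offset. Of 44 measured Wnt genes, 27 were below both controls and 10 above, with medians of -0.23 and -0.37. Jag1, the Notch ligand, stood at 9.43 against 11.52 and 11.49, and the target Hes1 was at -0.79, while 5 of 16 Notch genes lay above both controls. In axon guidance, Epha2 was higher (10.78 against 9.19 and 9.45), and Epha4 (-1.38), Slit3 (-1.31), Sema3f (-1.23), Sema5a (-1.04) and Robo2 (-1.03) were lower. With an offset of 32, Sema5a was at -0.91 and Robo2 at -0.83, and with the serum libraries also required Sema3f was at -0.96. Of the 38 measured guidance genes, 22 were below both controls and 13 above.

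The insulin-like growth factor axis had 17 of 22 measured members below both controls, 3 above and 8 at 2-fold lower, with medians of -0.87 and -0.85. The 8 made 36.4% of the list, beside 2.01% of all measured genes. Irs1 (probe set 17865965), the docking protein below the insulin and IGF1 receptors, stood at 7.22 with palmitate against 9.10 and 8.93 and at 8.42 to 8.94 in the other libraries, so palmitate was the lowest of the 6. Pik3r3, a subunit of PI3 kinase, stood at 7.41 against 8.65 and 8.66. Grb14, which inhibits the insulin receptor, stood at 8.67 against 10.71 and 10.38, and its relative Grb10 was at -0.94. The ligand Igf1 stood at 7.61 against 8.71 and 8.65, at -0.93 with the offset. Binding proteins that carry the ligand were low too: Igfbp2 stood at 8.34 against 11.06 and 10.02, Igfbp3 at 8.28 against 9.91 and 9.70, and Igfbp5 at 6.26 against 7.29 and 7.51. With the serum libraries also required, Igfbp3 was at -0.48 and Igfbp5 at -0.86, both under 2-fold. Igfbp5 lay below the median of all values with palmitate and was at -0.79 with the offset. In the cholesterol library Igfbp3 stood at 7.06, below both controls, and Igfbp5 at 8.23, above both. The hormone Stc1 was at -1.28, and the protease Htra1, which cleaves binding proteins, was at -0.89. The list's medians with cholesterol were -0.28 and -0.09.

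**Figure D3:**
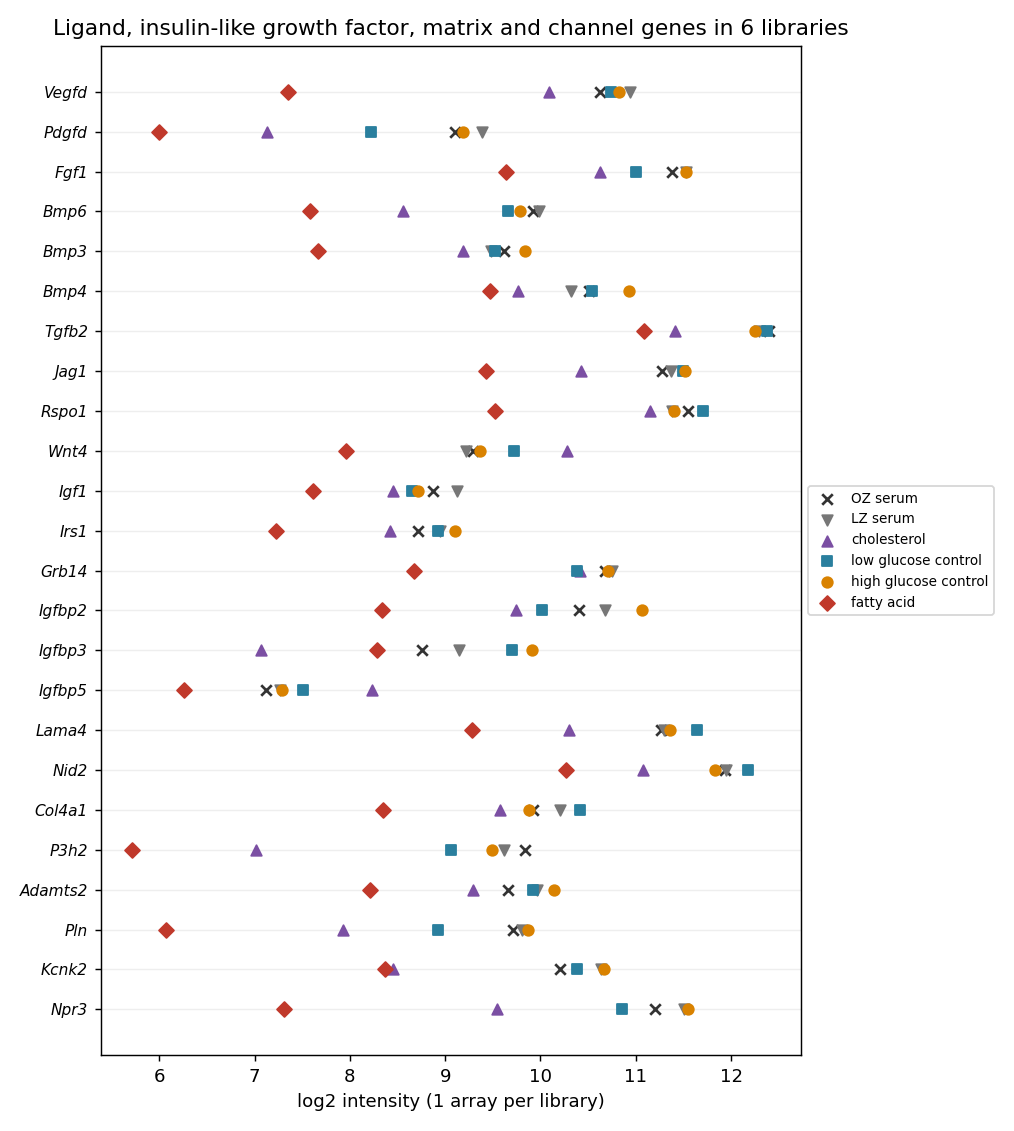
Log2 intensity (x axis) of 24 genes in the 6 libraries, 1 symbol per library and 1 array each. The palmitate library (red diamonds) lies to the left of both glucose controls for every gene shown and is the lowest of the 6 for all but Igfbp3, where cholesterol (purple triangles) is lower; the serum libraries (grey and black) lie with the controls for Vegfd, Jag1 and Kcnk2.

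Matrix genes were low from synthesis to assembly. In bulk RNA of this kind, fewer cells that make a product and less RNA of it per cell cannot be told apart. Of 25 measured genes that modify, cut or crosslink collagen, 24 were below both controls, none was above and 6 were at 2-fold lower, with medians of -0.70 and -0.76. The 6 made 24% of the list, beside 2.01% of all measured genes. P3h2 (probe set 17666544), a prolyl 3-hydroxylase, stood at 5.72 with palmitate against 9.49 and 9.06, a 10.1-fold difference with the palmitate value under the median of all values. Adamts2, which removes the amino end of procollagen, stood at 8.21 against 10.15 and 9.92. The enzymes for the carboxyl end, Bmp1 (-1.03) and Tll1 (-1.41), and their enhancer Pcolce (-1.07) were also low. Bmp1 was at -0.99 after quantile normalization, and with the serum libraries also required it was at -0.83 and Pcolce at -0.91. The crosslinkers Loxl1 (-1.11), Loxl2 (-0.90) and Loxl3 (-0.70) and the lysyl hydroxylase Plod2 (-0.86) followed. Of the 27 collagen genes themselves, 22 were below both controls and 4 at 2-fold lower.

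The basement membrane, the sheet around each muscle fibre, had 15 of 18 measured genes below both controls, 3 above and 6 at 2-fold lower. The 6 made 33.3% of the list, beside 2.01% of all measured genes. Lama4 (probe set 17755422), a laminin chain, stood at 9.28 against 11.36 and 11.64. The linkers Nid1 and Nid2 stood at 11.64 against 12.87 and 13.04, and at 10.27 against 11.83 and 12.18. Smoc2 was at -1.54, Col4a1 at -1.53 and Col4a2 at -1.07, and the laminin chains Lamb2 and Lamc1 at -0.80 and -0.68. Of 38 measured elastic fibre and matricellular genes, 33 were below both controls, 3 above and 12 at 2-fold lower, with medians of -0.80 and -0.63. The 12 made 31.6% of the list, beside 2.01% of all measured genes. Cilp, first known from cartilage, stood at 6.77 against 10.08 and 9.25, Fbln2 at 10.62 against 11.89 and 12.19, and the thrombospondin Thbs2 at 10.78 against 12.86 and 12.39. Outside the lists, Fndc1 stood at 8.18 against 11.70 and 10.91, and Tenm3, a teneurin adhesion protein, at 6.38 against 9.81 and 9.63. Adamtsl3, an ADAMTS-like matrix protein, stood at 7.05 against 9.63 and 9.72. With cholesterol, the medians of the collagen processing list were -0.26 and -0.37 and those of the matricellular list -0.18 and -0.16.

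The receptors that hold matrix were low in part. Itga8, which binds nephronectin and fibronectin, stood at 8.07 with palmitate against 10.46 and 10.59, Itga11, a collagen receptor, at 11.24 against 12.65 and 12.73, and Itga1, also a collagen receptor, at 10.45 against 11.80 and 11.69. Itga3 (0.54) and Itga2 (0.30) were above both controls, and Itgb1, the partner of all of these, was at -0.02. Of 16 measured integrin genes, 11 were below both controls and 4 above.

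Markers of mesenchymal progenitors were abundant in all 6 libraries. Of 15 annotated markers 14 passed the filter, and the intensity summed over all 15 was 55025 with palmitate and 70170 and 76223 in the controls. Thy1 stood at 13.17 against 13.50 and 13.51, Pdgfra at 9.15 against 10.04 and 9.69, and Col3a1 at 11.45 against 12.50 and 12.80, or -0.87 with the serum libraries also required. In all, 10 of the 14 were below both controls and 1 above, with medians of -0.68 and -0.68. Myogenic markers were near or below the filter: 3 of 10 passed it, Pax7 stood at 7.26 against 6.90 and 7.04, Des at 7.04 against 6.84 and 6.86, and Myod1 at 6.47 against 6.34 and 6.48. The labels call these muscle stem cells, and the satellite cell markers Pax7 and Myod1 were thus close to the median of all values in all 3 cultures. Of 7 adipocyte markers 4 passed, with Adipoq at 6.06 against 5.95 and 5.90.

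Of 31 measured genes that handle calcium and membrane current, 7 (22.6%, beside 2.01% of all measured genes) were at least 2-fold lower. Pln (probe set 17755160), phospholamban, the brake on the calcium pump of the sarcoplasmic reticulum, stood at 6.07 with palmitate against 9.87 and 8.92, with 7.93 in the cholesterol library. Casq2, a calcium store protein, stood at 6.84 against 8.75 and 8.75, and Kcnk2, a stretch-sensitive potassium channel, at 8.37 against 10.67 and 10.38. Both were nearly as low with cholesterol, at 6.91 and 8.45. The calcium channel subunits Cacna1c (-1.37) and Cacna2d1 (-1.11), the pump Atp2b4 (7.56 against 9.35 and 9.06) and the release channel Itpr1 (-1.04; -0.99 with the offset) were lower as well, while the pump Atp2b1 (0.66) and the store-operated channel Orai1 (0.54) were higher. In all, 19 of the 31 were below both controls and 5 above. Nalcn, a sodium leak channel outside the lists, stood at 6.42 against 8.68 and 8.54.

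Cyclic GMP genes at 2-fold lower included a receptor, a kinase and a phosphodiesterase. Npr3 (probe set 17745928), which clears natriuretic peptides, stood at 7.31 with palmitate, 11.55 and 10.85 in the controls, 9.54 with cholesterol and 11.51 and 11.20 in the serum libraries, so palmitate was the lowest by over 2 units. Pde5a, which destroys cyclic GMP, stood at 7.71 against 9.56 and 8.93, and Prkg1, its kinase, at 8.46 against 9.49 and 9.54. Prkg1 was at -0.97 with the offset, under 2-fold. The peptide Nppb was at 0.75. Of 28 measured genes, 18 were below both controls and 8 above. Carbonic anhydrases had 5 of 8 below and 3 at 2-fold: Car3 stood at 8.74 against 12.30 and 11.84, Car9 at 8.95 against 12.13 and 11.26, and Car1 at 6.00 against 7.77 and 7.18. The 3 made 37.5% of the list, beside 2.01% of all measured genes. The palmitate value of Car1 was under the median of all values, and Car1 was at -0.88 with the offset. Epas1 (HIF-2 alpha), which acts upstream of some hypoxia genes, stood at 7.71 with palmitate and between 9.42 and 9.80 in all 5 other libraries.

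Ribosome biogenesis had 30 of 35 measured genes above both controls, none below and none at 2-fold, with medians of 0.50 and 0.28. Nop56, a core protein of box C/D particles, stood at 11.22 with palmitate and between 10.29 and 10.53 in the other 5 libraries, and Utp18 at 10.19 against 9.40 to 9.56 in those 5. With cholesterol the list's medians were 0.09 and -0.13. Division genes depended on the control. Mitosis genes had 32 of 50 below both controls and 3 above, but the medians were -0.07 from the high glucose control and -0.54 from the low glucose control. The controls themselves differed by a median of -0.43 in these genes, high minus low glucose. Kif20a stood at 9.10 against 9.46 and 10.10, and Cdk1 at 9.34 against 9.65 and 10.01. DNA replication genes had medians of opposite sign, 0.23 and -0.13, with 25 of 50 between the controls. Pcna (11.54 against 10.99 and 10.93) and Prim1 (10.04 against 9.28 and 9.39) were the members farthest above both, beside Gins4 at 0.53.

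**Figure D4:**
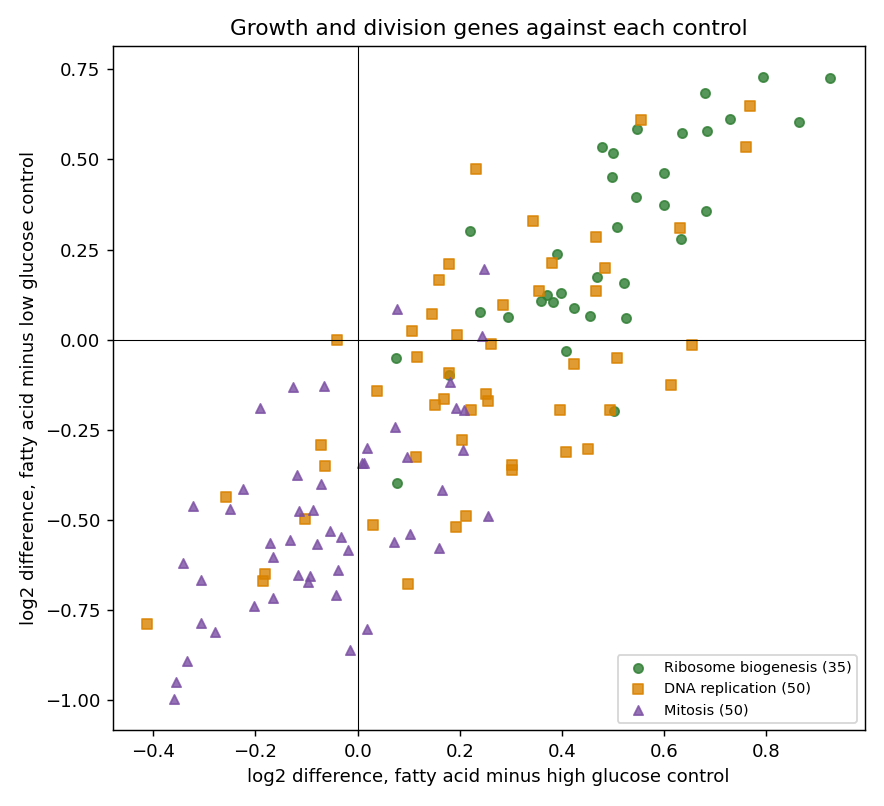
Log2 difference of the palmitate library from the high glucose (x axis) and low glucose control (y axis) for measured genes of ribosome biogenesis (35), DNA replication (50) and mitosis (50), 1 point per gene. Ribosome biogenesis genes lie mostly in the upper right, mitosis genes lie low against the low glucose control and near 0 against the high glucose control, and 25 of the 50 replication genes lie in the lower right.

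Of 69 measured respiratory chain genes, 41 were below both controls and 9 above, none at 2-fold, with medians of -0.09 and -0.18. Ndufv3 (-0.74), Ndufa2 (-0.70) and Atp5pd (-0.66) were the members farthest below. Ucp2, a mitochondrial carrier, stood at 8.25 against 9.63 and 10.06.

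**Figure D5:**
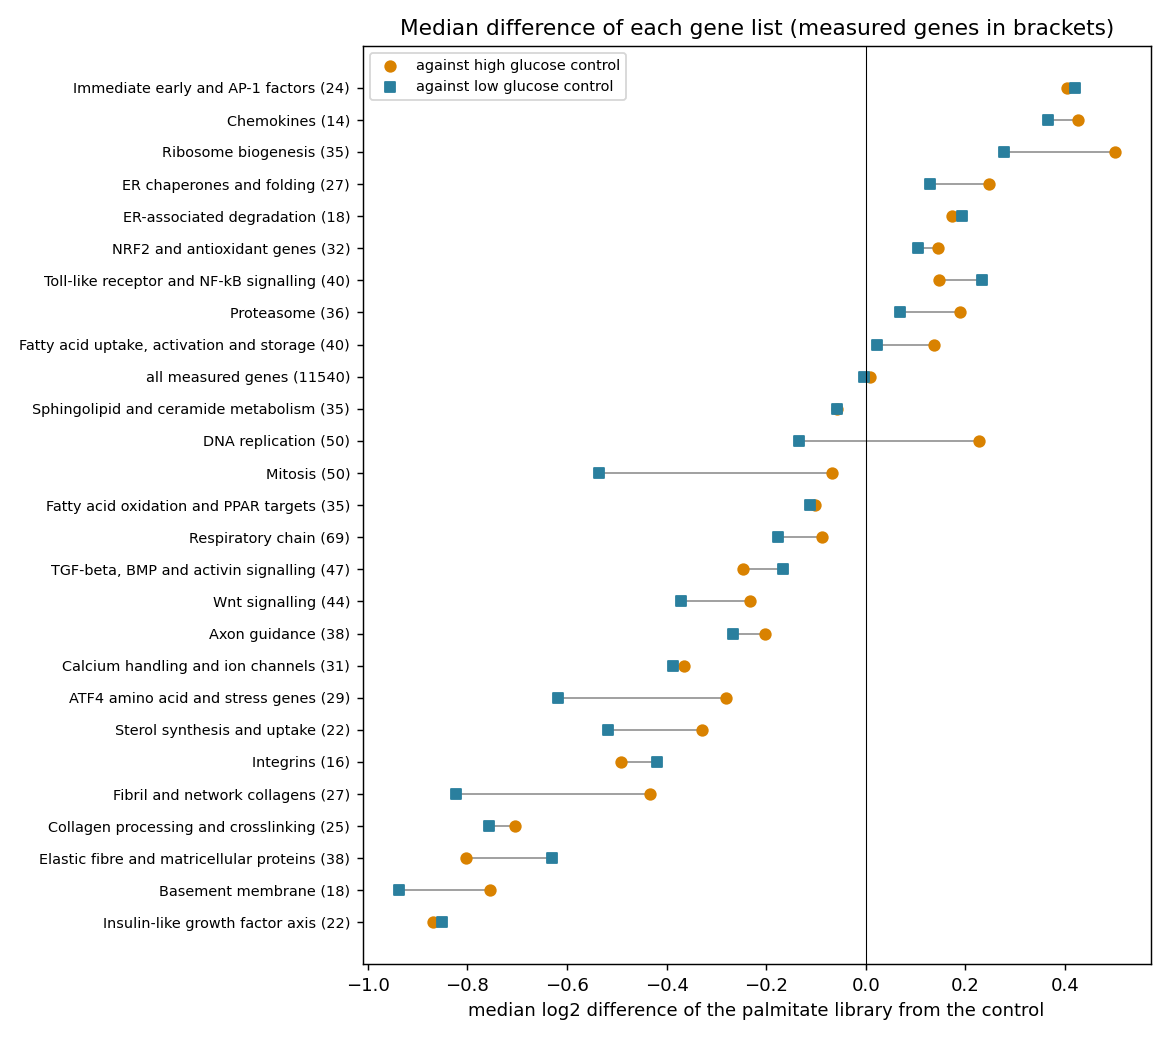
Median log2 difference of the palmitate library (x axis) from the high glucose control (circles) and the low glucose control (squares) for 26 gene lists and for all 11540 measured genes, with the number of measured genes in brackets. Immediate early genes, chemokines and ribosome biogenesis lie farthest to the right among those shown, and the insulin-like growth factor axis and basement membrane farthest to the left; mitosis, DNA replication and the fibril collagens show wide gaps between the controls.

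Among 363 named microRNA genes 78 passed the signal filter, 39 above both controls and 29 below, and 4 reached 2-fold (2.65% of all measured genes did). These were named after their values were seen. The array reads hairpins, primary transcripts or host genes and not the mature strand. Mir31 (probe set 17808560) stood at 10.13 with palmitate and between 7.88 and 8.29 in all 5 other libraries, a 4.35-fold difference from the nearer control. Mir326 stood at 8.02 against 6.90 and 6.44 but was at 0.94 with the offset, and it passed the signal filter only through its palmitate value. Mir143 and Mir145, a cluster known from smooth muscle, stood together on the low side, at 7.04 against 8.24 and 8.42 and at 6.19 against 7.70 and 7.47. Mir145 with palmitate was under the median of all values, and it narrowly missed 2-fold with the offset. The mature sequences below, from RefSeq (GRCr8), are shown with the seed (bases 2 to 8, which pair with targets) in capitals, and no seed is shared.
rno-miR-31a-5p (chr5:108714906-108714927, minus strand): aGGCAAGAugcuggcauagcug
rno-miR-326-3p (chr1:163266224-163266244, plus strand): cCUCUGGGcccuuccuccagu
rno-miR-143-3p (chr18:57371373-57371394, minus strand): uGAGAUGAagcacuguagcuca
rno-miR-145-5p (chr18:57370033-57370055, minus strand): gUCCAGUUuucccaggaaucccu

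The controls differed from each other at 2-fold in 41 genes (0.355%), and for some of these palmitate was 2-fold from 1 control only. Aspn, a small proteoglycan, stood at 9.59 with palmitate against 11.16 with high and 9.48 with low glucose. Cd200, a surface brake on myeloid cells, stood at 8.72 against 9.94 and 8.48, and Lum, a further small proteoglycan, at 6.02 against 8.18 and 6.50. These 3 genes were 2-fold below the high glucose control and within 2-fold of the other. Tnfrsf11b (osteoprotegerin) stood at 11.93 against 11.98 and 10.75, Acod1, which makes itaconate, at 8.79 against 8.61 and 7.08, and Ampd3, an AMP deaminase, at 9.41 against 8.60 and 6.71. These were 2-fold above the low glucose control only. Serpinb7 stood at 7.58 against 8.22 and 10.03, and Col6a3 at 7.76 against 8.24 and 9.73, 2-fold below the low glucose control only. With high glucose as the sole control, 118 genes (1.02%) reached 2-fold upward and 354 (3.07%) downward. With low glucose as the sole control, 110 (0.953%) and 317 (2.75%) did. Of the 306 genes at 2-fold against both, 8 were also 2-fold apart between the controls.

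Against the other 3 libraries, 69 of the 74 higher genes were highest in the palmitate library, and 35 were at least 2-fold above all 5 others. Of the 232 lower genes, 221 were lowest with palmitate and 87 were at least 2-fold below all 5 others. Both sets were picked for lying 2-fold beyond both controls, so their place against those arrays was fixed by the rule. No share over all genes was counted for the 69, 35, 221 and 87. Read against the same controls, cholesterol lay above both for 57 of the 74 and below both for 204 of the 232. Both comparisons share the control arrays, and the 74 and 232 genes were picked by their distance from those arrays. Over all 11540 measured genes, the median difference of cholesterol was 0.012 from the high glucose control and 0.0018 from the low glucose control. The share of all genes with cholesterol above or below both was not counted, so the 57 and 204 have no background. Whether palmitate and cholesterol share a response was not tested. Genes with palmitate high and cholesterol below both controls numbered 7, Derl3 and the transporter Slc16a6 (9.39 with palmitate, 7.74 and 8.03 in the controls, 7.42 with cholesterol) among them. Genes with palmitate low and cholesterol above both numbered 9, among them Wnt4, Igfbp5 and Lrrc15 (9.80 with palmitate, 10.93 and 11.13 in the controls, 11.58 with cholesterol).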

How the data were processed

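Per the labels, the RNA came from a micro column kit (Qiagen) and was read on Affymetrix Rat Gene 2.0 ST arrays. The deposited values are linear probe-set intensity values, and how they were background-corrected and summarised is not given in the sources used here, nor is their normalization. Log2 was taken without an offset. The platform annotation gives 1 gene for 18511 of 36685 probe sets, several for 575 and none for 17599. For the 291 genes with more than 1 probe set, the brightest on average stood for the gene. No test was run, since each group has 1 array, whose number limits the precision. Genes below the median signal (log2 6.74) were left out.

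The comparison, the members and the 79 gene lists (2542 symbols, 2198 annotated, 1773 past the filter) were chosen with earlier results of these data known, so counts over lists are descriptions. Named genes were drawn from the 40 per direction with the largest values, list members at 2-fold and up to 8 others per list. Up to 12 genes that differed between controls and up to 10 that differed in other libraries were added. Not every such gene is named, so absence does not mean no difference. Named only here are Hapln1 (-3.38), Ogn (-3.08), Dhcr7 (-1.21), Nabp1 (2.16), Usp18 (1.86) and Abcg1 (1.56), among others left out. Provisional, olfactory, vomeronasal and small RNA symbols were passed over, except where stated. Promoters and microRNAs came from RefSeq (GRCr8) by gene identifier, taking the first start listed. Counting was tested on simulated data. The alternatives were cyclic loess, median centring, quantile normalization, no filter, a stricter filter (brightest array past the 75th percentile, log2 8.68), averaged probe sets, 1.5-fold, 3-fold, each control alone, their mean, the serum libraries as well, an offset of 32 and, chosen after seeing the data, a filter on the other 5 libraries. Python 3.11.15 (numpy 2.4.6, pandas 2.3.3, scipy 1.17.1, matplotlib 3.10.9) and R 4.3.3 (limma 3.58.1) were used.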

Additional observations from a re-analysis of the deposited data

How the results depend on the processing

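The counts of 74 genes higher and 232 lower than both controls were within 1.5 times under every other scaling, filter, probe set rule and offset tried. Higher genes numbered 68 to 90 and lower genes 192 to 262 there. At 1.5-fold they were 337 and 707, at 3-fold 22 and 59, and against the high glucose control alone 118 and 354, while the low glucose control alone and the mean of both kept them within 1.5 times. None of the 306 genes reversed under any alternative, and 71 were under 2-fold in at least 1. With each control alone, their mean or the serum libraries as well, a reversal could not occur by construction. The absence of reversals thus bears only on the other scalings, the offset and averaged probe sets. The offset of 32 took 41 lower and 6 higher genes under 2-fold, the serum libraries 42 and 3. For 34 of the 232 lower genes the palmitate signal lay below the median of all values, which limits the size of their fold. A filter on the mean of the other 5 libraries, chosen after seeing the data, gave 69 and 234. Of 79 list medians, the signs against both controls held in 65 to 79 lists. No scaling moved a list median by 0.1. Over all recomputed settings, filters included, 96 of 1254 list medians moved by 0.1 or more. No paired analysis was possible because each group has 1 array.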

Other observations

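Probe sets with no gene name are used in no comparison above. Of 6207 such probe sets past the signal filter, 30 were 2-fold or more above both controls with palmitate and 67 were 2-fold or more below both.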
